A study of Sus scrofa with 14 samples.

Results

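The homeostatic chemokines CCL19, CCL21, CXCL12 and CXCL14 and the hyaluronan receptor LYVE1 were described in the pregnant uterus of the pig. These 5 genes, of 6765 with a symbol of their own on the array, were taken by name, and all 9 probe sets that carry 1 of these symbols and no other were used. The genes were picked with the difference between sows of high and low prolificacy already known. Their levels in the 2 groups are therefore given as a description, without a test.

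Uterus was taken at slaughter from 14 F2 sows of a cross between the Iberian and Meishan pig breeds, at days 30 to 32 of the fifth pregnancy. The labels class 5 sows as high and 9 as low prolificacy, with 1 Affymetrix porcine array per sow as a biological replicate. No treatment is labelled, and neither the ages of the sows nor the part of the uterine wall sampled is stated there. Levels are log2 values after RMA, which evens out the distribution of probe intensities between arrays, and differences are high minus low.

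Chemokines are small secreted proteins that guide cells carrying matching receptors. CCL19 and CCL21 are the ligands of CCR7. Lymphatic endothelium and the stroma of lymphoid tissue make CCL21, which draws T cells and dendritic cells towards lymph vessels and nodes, and CCL19 comes from lymphoid stroma and mature dendritic cells. CXCL12 acts through CXCR4 and the scavenger receptor ACKR3, and keeps leukocytes and progenitor cells in place. CXCL14 is made mainly by epithelia. LYVE1 is a standard marker of lymphatic endothelium and is also found on some tissue macrophages. In the gene table of the pig assembly Sscrofa11.1, CCL21 and CCL19 are neighbouring protein-coding genes, with CCL27 close by.

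CCL21 (probe set Ssc.18613.1.S1_at) had the clearest separation of the 4 chemokines. Its log2 level on the high prolificacy arrays was 6.66 for high 1, 5.00 for high 2, 4.92 for high 3, 5.03 for high 4 and 5.78 for high 5. On the 9 low prolificacy arrays it had a lowest value of 6.98, a median of 8.31 and a highest value of 8.81. The groups did not overlap, and high 1 came nearest to the low arrays. The means were 5.48 ± 0.75 (SD, n = 5) and 8.16 ± 0.64 (SD, n = 9), a difference of -2.68 ± 0.35 (SE), or 6.39-fold lower in high prolificacy. Without high 1 it was 7.85-fold lower.

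CCL19 (Ssc.21802.1.S1_at), the other CCR7 ligand, lay on the same side with a smaller distance. Its levels were 5.89, 4.87, 4.84, 5.85 and 6.29 on high 1 to high 5, against a lowest value of 5.83, a median of 6.67 and a highest value of 7.77 on the low arrays. The groups overlapped, since 2 of the 5 high arrays, high 2 and high 3, lay under all low arrays and the other 3 did not. The difference was -1.15 ± 0.33 (SE), or 2.22-fold lower in high prolificacy.

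LYVE1 had 3 probe sets. The brightest (Ssc.5047.1.A1_at) was at 6.29, 3.89, 3.48, 5.53 and 5.01 on high 1 to high 5, and on the low arrays ran from 6.68 over a median of 7.46 to 7.56. The groups did not overlap, and the low arrays kept within 0.88 while the high arrays spread over 2.81. Its means were 4.84 ± 1.16 (SD, n = 5) and 7.30 ± 0.31 (SD, n = 9), a difference of -2.47 ± 0.37 (SE), or 5.53-fold lower.

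The next LYVE1 probe set (Ssc.17343.1.S1_at) differed by -1.19 ± 0.24 (SE), and 4 of the 5 high arrays lay under all low arrays. High 1, at 5.44, reached the lowest low array, also at 5.44. The third (Ssc.17343.1.A1_at) stood at 3.36 ± 0.11 (SD, n = 5) and 3.45 ± 0.19 (SD, n = 9), brighter than only 15.6% of probe sets tested, and differed by -0.08 ± 0.11 (SE). Within low prolificacy the first 2 LYVE1 probe sets moved together (Pearson r = 0.80 over 9 arrays, exact permutation p = 0.0091, adjusted p = 0.016 over the 5 pairs of probe sets of 1 gene; Spearman rho = 0.82, exact p = 0.011, adjusted p = 0.027). Without low 3 and low 8, the arrays farthest from the median, r was 0.42, so this relation rests on those arrays. The dim probe set did not follow the brightest (r = 0.06, exact permutation p = 0.88; rho = -0.08, exact p = 0.84; r = -0.50 without low 3 and low 8).

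CXCL14 stood on the opposite side. Its brightest probe set (Ssc.4984.1.S1_at) was at 11.50, 11.61, 11.61, 11.21 and 11.69 on high 1 to high 5, and ran from 6.20 over a median of 8.11 to 11.26 on the low arrays. The high arrays stayed within 0.48 of each other, while the low arrays spread over 5.06. Only low 5, at 11.26, reached into the high range, above high 4. The difference was 2.93 ± 0.77 (SE), or 7.62-fold higher in high prolificacy, from 8.60 ± 1.85 (SD, n = 9) to 11.53 ± 0.19 (SD, n = 5). The other probe set (Ssc.20578.1.S1_at) differed by 2.64 ± 0.68 (SE). Its high arrays were less even, spread over 1.27 from 9.85 to 11.13, and its low arrays spread over 4.56. Over the 9 low arrays the 2 probe sets gave r = 0.99 (exact permutation p = 2.8e-06, adjusted p = 1.4e-05, rho = 1.0, exact p = 5.5e-06, r = 0.99 without low 1 and low 5).

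CXCL12 was spread over both groups, and high 1 set its mean. The brightest probe set (Ssc.26221.1.S1_at) was at 7.04 on high 1, the highest of the 14 arrays, and at 4.78, 4.36, 4.66 and 5.19 on high 2 to high 5. The low arrays ran from 4.89 over a median of 6.01 to 6.63, so that high 2, high 3 and high 4 lay under all of them and high 1 above all of them. The other probe set (Ssc.7243.1.A1_at) gave the same picture, with 8.08 on high 1 against 4.65, 2.91, 3.83 and 3.88 on the other high arrays and a low range of 4.54 to 7.36. The differences were -0.60 ± 0.42 (SE) and -1.29 ± 0.74 (SE), and without high 1 they were -1.06 and -2.14. Over the low arrays the 2 CXCL12 probe sets gave r = 0.84 (exact permutation p = 0.0097, adjusted p = 0.016; rho = 0.68, exact p = 0.050; r = 0.74 without low 1 and low 2).

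**Figure D1:**
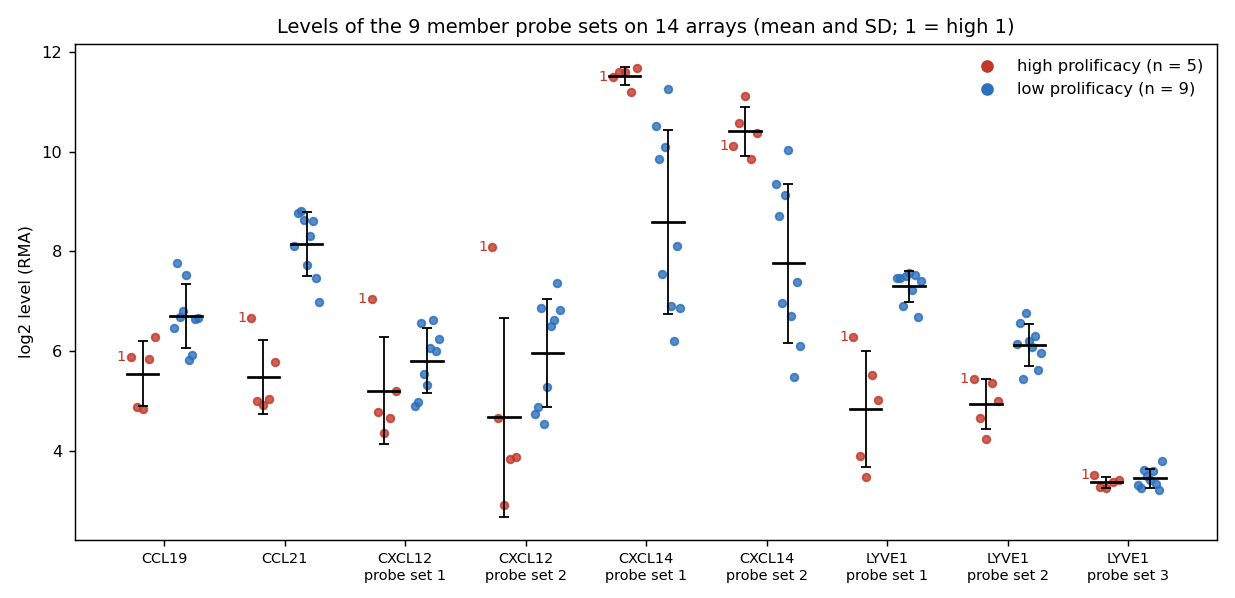
Log2 level (vertical axis) of the 9 probe sets on the 14 arrays, with points for single arrays, a bar for the group mean and whiskers for the SD; red points are high prolificacy (n = 5), blue points low (n = 9), and "1" marks high 1. Probe sets of a gene are numbered from the brightest. CCL21 and the brightest LYVE1 probe set do not overlap between groups, and high 1 is far above the other high arrays for CXCL12. The brightest CXCL14 probe set is even at 11.21 to 11.69 in high and wide in low prolificacy. The other CXCL14 probe set runs from 9.85 to 11.13 in high prolificacy.

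Of the 9 probe sets, 6 passed limma's adjusted p of 0.05 over the whole array, 4 lower (CCL21, CCL19 and the first 2 of LYVE1) and 2 higher (both of CXCL14), beside 7.85% of all 23999 probe sets in either direction, 4.35% lower and 3.50% higher. The 2 probe sets whose groups did not overlap, both lower, stand beside 1.74% of all probe sets lower in high prolificacy without overlap. Nothing is read from these shares, since the genes were picked from this contrast. The median difference was -1.15 over the 9 probe sets and 0.04 over all probe sets. Array medians lay between 5.72 and 5.84, and without detection calls it is open to doubt which levels near 5 or below lay above background. That limits the folds of CCL19, CCL21, CXCL12 and LYVE1 and of any other gene named with a mean near or under that level in a group, such as KDR, FABP4 and PPARG. It also limits what the lack of a call means for list genes at such levels, such as CCR7, LTB and CXCL13.

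Markers of other cell types differed between the same groups. Of 15 smooth muscle markers on the array, 15 were called lower in high prolificacy, with a median difference of -3.33, and of 17 epithelium markers 9 were called higher and 0 lower, with a median of 1.97, beside 5.42% of genes lower and 5.34% higher by their brightest probe set. Among them CNN1, smooth muscle calponin, fell 24.6-fold (limma adjusted p = 0.00072), the keratin KRT8 rose 5.55-fold (0.0024) and OVOL1, an epithelial transcription factor, rose 4.10-fold (0.0032), its dimmer probe set differing by -0.13. The list mean (each gene centred on its 14 arrays, then averaged) ran from -3.56 to -0.04 in high and from 0.72 to 1.92 in low prolificacy for smooth muscle, and from 0.63 to 1.54 and from -2.20 to 0.15 for epithelium. High 1, the array nearest to the low group for CCL21 and LYVE1, was also nearest for smooth muscle, at -0.04 where the other high arrays lay at -2.52 or lower. In such bulk samples, fewer cells of a type and less RNA per cell cannot be told apart.

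With these 2 list means as covariates, which together account for 83.2% of the group, the differences of the brightest probe sets were -1.11 for CCL21, -1.19 for CCL19, -0.18 for LYVE1 and 0.87 for CXCL14. Both CXCL12 probe sets turned from lower to higher, at 2.37 and 3.72, and the part of high 1 in this turn was not tested. Because the covariates share so much with the group, all these differences are imprecise, and their errors are not given here. This fit called 0 of 23999 probe sets in limma, so the list genes called in the paragraphs that follow were not called in it. In it 312 probe sets had an unadjusted p under 0.05, against 5073 without the covariates. That is fewer than chance alone gives at this threshold. With covariates that share so much with the group, the fit could hardly call any probe set, and the lack of calls says little.

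**Figure D2:**
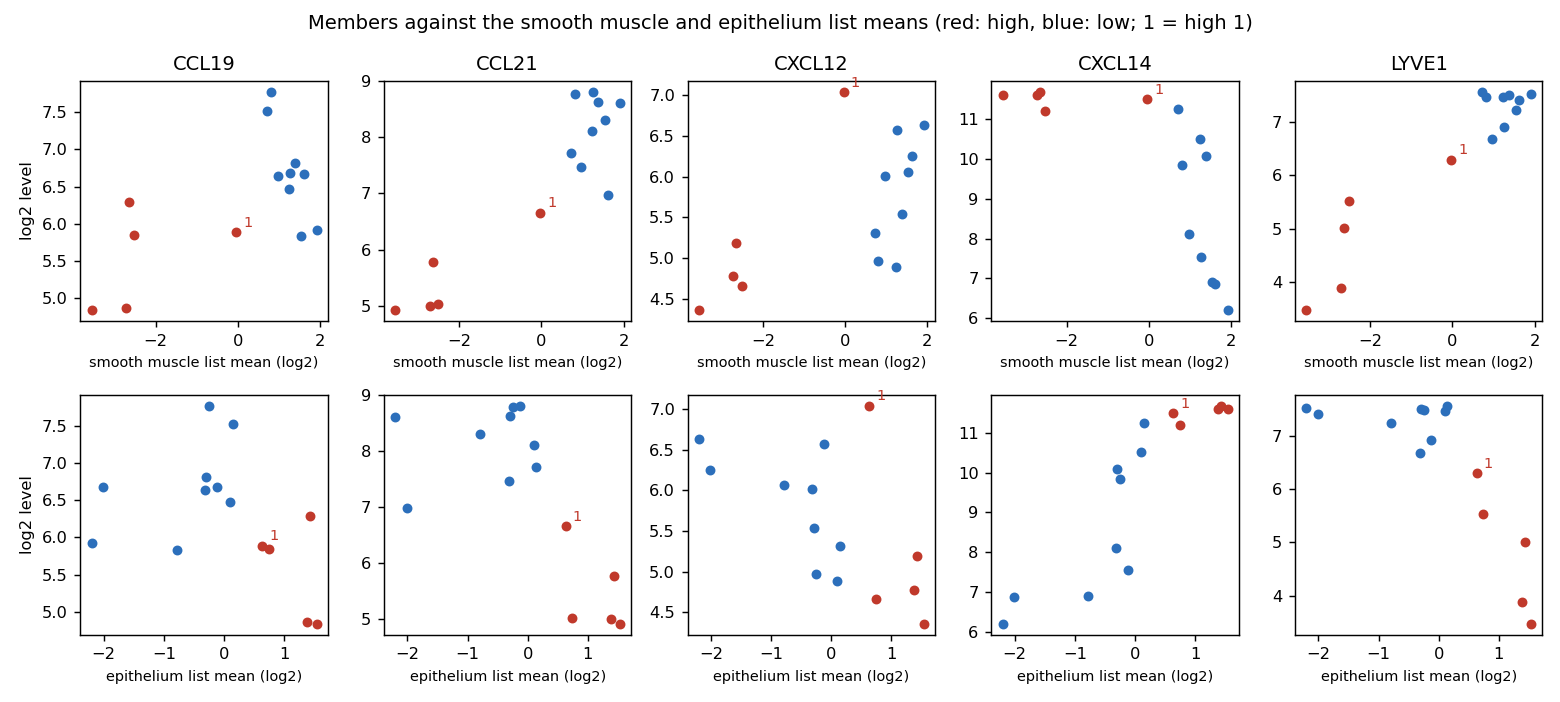
Log2 level of the brightest probe set of each member (vertical axis) against the smooth muscle list mean (top row) and the epithelium list mean (bottom row), 1 point per array, red for high and blue for low prolificacy, with high 1 marked. Within the blue points CXCL14 gives r = 0.78 with epithelium (not called after adjustment), and CCL21 and LYVE1 give r = 0.06 and 0.15 with smooth muscle; differences between these values were not tested.

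Within the 9 low prolificacy arrays the contrast that picked the genes plays no part, so relations there were tested. The members and tests were still chosen with earlier results of these data known, which limits the p-values. Of the 10 pairs of members, CXCL12 and CXCL14 passed. Their brightest probe sets ran against each other, with Pearson r = -0.89 (exact permutation p = 0.0036, adjusted p = 0.036 over 10 pairs) and Spearman rho = -0.87 (exact p = 0.0045, adjusted p = 0.045). Without low 1 and low 2, the arrays farthest from the median of CXCL12, r was -0.91. When single arrays were left out r stayed between -0.91 and -0.85, but with 8 arrays the adjusted p passed 0.05 only without low 2 or low 5 and was between 0.051 and 0.16 without any of the other 7.

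The low arrays fell on both sides of a gap in CXCL14. Low 1, low 2, low 4 and low 5 were at 9.85 or higher with CXCL12 at 4.89 to 5.54, and low 3, low 6, low 7, low 8 and low 9 were at 8.11 or lower with CXCL12 at 6.01 to 6.63. Each side is too small for a correlation of its own, so the relation inside a side was not tested. The other probe sets of both genes, compared after seeing the data, gave r between -0.88 and -0.81 (exact permutation p between 0.0039 and 0.016, unadjusted). Both genes also stood in opposite relation to the tissue markers over these 9 arrays, none of it passing adjustment over 40 relations. CXCL12 gave r = -0.64 with the epithelium mean (exact permutation p = 0.062, adjusted p = 0.21; rho = -0.68, exact p = 0.050; r = -0.44 without low 7 and low 9) and r = 0.65 with the smooth muscle mean (exact permutation p = 0.060, adjusted p = 0.21; rho = 0.73, exact p = 0.031; r = 0.47 without low 5 and low 7). CXCL14 gave r = -0.75 with the smooth muscle mean (exact permutation p = 0.024, adjusted p = 0.13; rho = -0.82, exact p = 0.011; r = -0.50 without low 5 and low 7) and 0.78 with the epithelium mean. The part of tissue makeup in the relation of CXCL12 and CXCL14 was not tested. High 1 lay off the line of the low arrays, with CXCL12 at 7.04 and CXCL14 at 11.50.

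**Figure D3:**
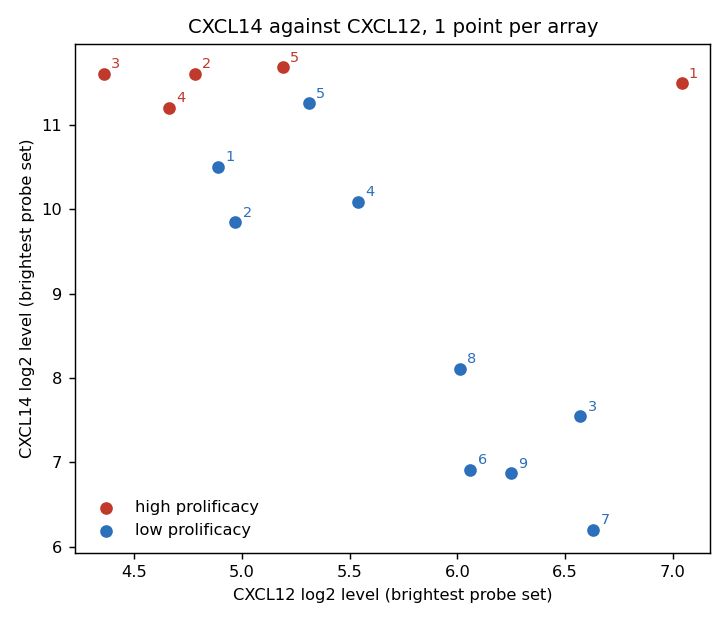
CXCL14 (vertical axis) against CXCL12 (horizontal axis), log2 levels of the brightest probe sets, 1 numbered point per array. The 9 low prolificacy arrays (blue) fall from upper left to lower right (r = -0.89), 4 of the high arrays (red) sit at the upper left, and high 1 sits alone at the upper right.

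No relation between the CCR7 ligands was detected. CCL19 and CCL21 gave r = -0.01 over the low arrays (exact permutation p = 0.98; rho = 0.27, exact p = 0.49; r = -0.25 without low 2 and low 5), which did not differ detectably from 0 with 9 arrays. CCL21 and LYVE1, which both mark lymphatic endothelium, gave r = 0.13 (exact permutation p = 0.74; rho = 0.10, exact p = 0.81; r = -0.42 without low 8 and low 9). CCL19 and CXCL14 gave r = 0.71 (exact permutation p = 0.035, adjusted p = 0.17; rho = 0.55, exact p = 0.13; r = 0.54 without low 2 and low 5) and did not pass. The other 6 pairs had adjusted p of 0.29 or more.

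Of 40 relations between a member and a marker list mean within low prolificacy, 0 passed an adjusted p of 0.05 by the exact permutation test, with 9 at an unadjusted p under 0.05 for Pearson and 0 passing for Spearman. CXCL14 and the epithelium mean gave r = 0.78 (exact permutation p = 0.0052, adjusted p = 0.10; rho = 0.88, exact p = 0.0031, adjusted p = 0.062; r = 0.75 without low 7 and low 9). Without low 3 this r was 0.87 and passed (exact permutation adjusted p = 0.0020). CCL19 and the smooth muscle mean gave r = -0.83 (exact permutation p = 0.0070, adjusted p = 0.10, rho = -0.63, exact p = 0.076, r = -0.70 without low 5 and low 7), whereas both were lower in high than in low prolificacy. CCL19 gave r = 0.81 with the blood endothelium mean (exact permutation p = 0.0084, adjusted p = 0.10, rho = 0.72, r = 0.55 without low 2 and low 6). With the B and plasma cell mean it gave r = 0.78 (exact permutation p = 0.014, adjusted p = 0.11, r = 0.56 without low 6 and low 7) and rho = 0.92 (exact p = 0.0013, adjusted p = 0.052). CXCL14 and the blood endothelium mean gave r = 0.74 (exact permutation p = 0.029, adjusted p = 0.13, rho = 0.70).

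CCL21 and the smooth muscle mean gave r = 0.06 (exact permutation p = 0.87; rho = 0.00, exact p = 1.0; r = -0.33 without low 5 and low 7). LYVE1 and the smooth muscle mean gave r = 0.15 (exact permutation p = 0.70; rho = -0.07, exact p = 0.88; r = 0.26 without low 5 and low 7). LYVE1 was closest to the stromal fibroblast mean (r = 0.78, exact permutation p = 0.010, adjusted p = 0.10; rho = 0.67, exact p = 0.059; r = 0.58 without low 7 and low 8). For CCL21 the highest values were those with the resident macrophage mean (r = 0.73, exact permutation p = 0.025, adjusted p = 0.13; rho = 0.70, exact p = 0.043; r = 0.21 without low 8 and low 9, so it rests on those arrays) and with the T and NK cell mean (r = 0.72, exact permutation p = 0.030, adjusted p = 0.13; rho = 0.75, exact p = 0.025; r = 0.56 without low 2 and low 3).

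The genes most like each member were taken by Pearson r over the 14 arrays after each group was centred on its mean, as a description. All points share the tissue makeup of their sample. For CXCL14 they were HSD17B2 (r = 0.95), an enzyme that inactivates estradiol, CHI3L1 (0.95), a chitinase-like secreted glycoprotein, the epithelial calcium channel TRPV6 (0.94) and LOC100524999 (0.94). Within the low arrays alone these 4 gave r between 0.95 and 0.97. HSD17B2 averaged 10.57 ± 0.57 (SD) on the 5 high arrays and 7.60 ± 2.96 (SD) on the 9 low arrays, and TRPV6 averaged 10.87 ± 0.27 and 8.18 ± 1.95. Both shared with CXCL14 the even high group and the wide low group, and neither passed in limma (adjusted p = 0.17 and 0.057).

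For CXCL12 the most alike were HSPA2 (r = 0.93), a heat shock family chaperone, PCSK1N (0.93), the precursor of a prohormone convertase inhibitor, FIBIN (0.92) and FXYD7 (0.91), a regulator of the sodium pump. HSPA2 followed CXCL12 closely within the low arrays as well (r = 0.98). HSPA2, PCSK1N and FXYD7 were called lower in high prolificacy, with differences of -1.83, -2.04 and -2.36 (adjusted p from limma = 0.013, 0.0054 and 0.0030), and FIBIN was not called (-1.41, limma adjusted p = 0.053).

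For CCL19 they were LOC106504372 (0.88), the class II antigen-presenting genes SLA-DRB1 (0.87) and SLA-DQB1 (0.85), whose near-identical copies can share probes, and LOC100156073 (0.85). SLA-DRB1 and SLA-DQB1 differed between groups by 0.17 and -0.11 (limma adjusted p = 0.86 and 0.89), unlike CCL19's own -1.15. For CCL21 the values were lower, with VIM (0.81), the intermediate filament of mesenchymal cells, the glycolytic enzyme ALDOC (0.79), the small GTPase RHOB (0.77) and the non-muscle myosin MYH10 (0.77). RHOB was called lower by 1.04 (limma adjusted p = 0.0042). VIM and MYH10 differed by -0.25 and -0.33 and ALDOC, the other way, by 0.59, none of them called (limma adjusted p = 0.24, 0.13 and 0.077). MYH10 averaged 2.99 in high and 3.32 in low prolificacy, where detection is open to doubt, which limits its likeness to CCL21. For LYVE1 they were TIMP1 (0.93), an inhibitor of matrix metalloproteinases, smooth muscle actin ACTA2 (0.93), the basement membrane collagen COL4A2 (0.91) and APP (0.91). Within the low arrays ACTA2 gave r = 0.54 and APP r = 0.36, so much of their likeness to LYVE1 came from the high arrays.

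The receptors and handling proteins of the chemokines were read next. Of 13 genes listed, 7 had a probe set, and limma called 0 of them in either direction, with 2 at an unadjusted p under 0.05. This stands beside 10.8% of genes called by their brightest probe set, a share that also applies to the lists below. At that share short lists can hold 0 calls. CCR7, the receptor of CCL19 and CCL21, averaged 4.90 ± 0.29 (SD, n = 5) and 4.83 ± 0.29 (SD, n = 9) and so differed by 0.07 ± 0.16 (SE, adjusted p from limma = 0.86). Its levels ran from 4.58 to 5.32 in high and from 4.34 to 5.23 in low prolificacy. At such levels detection is open to doubt, so a change in CCR7 could have gone unseen. CXCR4, the receptor of CXCL12, was at 6.90 ± 0.79 and 6.11 ± 1.20 (difference 0.79 ± 0.55, SE; adjusted p from limma = 0.47). DPP4, a peptidase that trims and inactivates CXCL12, averaged 10.11 ± 0.98 (SD, n = 5) and 7.93 ± 2.21 (SD, n = 9), and its difference of 2.18 ± 0.96 (SE) was not called by limma (adjusted p = 0.20).

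HPSE, the heparanase that cuts the sugar chains on which chemokines are held, differed by 1.25 ± 0.76 (SE, limma adjusted p = 0.39). HMGB1, which binds CXCL12, differed by 0.06, the arrestin ARRB2 by -0.26 and the inhibitory G protein subunit GNAI2 by -0.55 (limma adjusted p = 0.87, 0.60 and 0.10). With array weights GNAI2 was called, at -0.67 (limma adjusted p = 0.021). The scavenger receptors ACKR1 to ACKR4 were not analysed here.

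**Figure D4:**
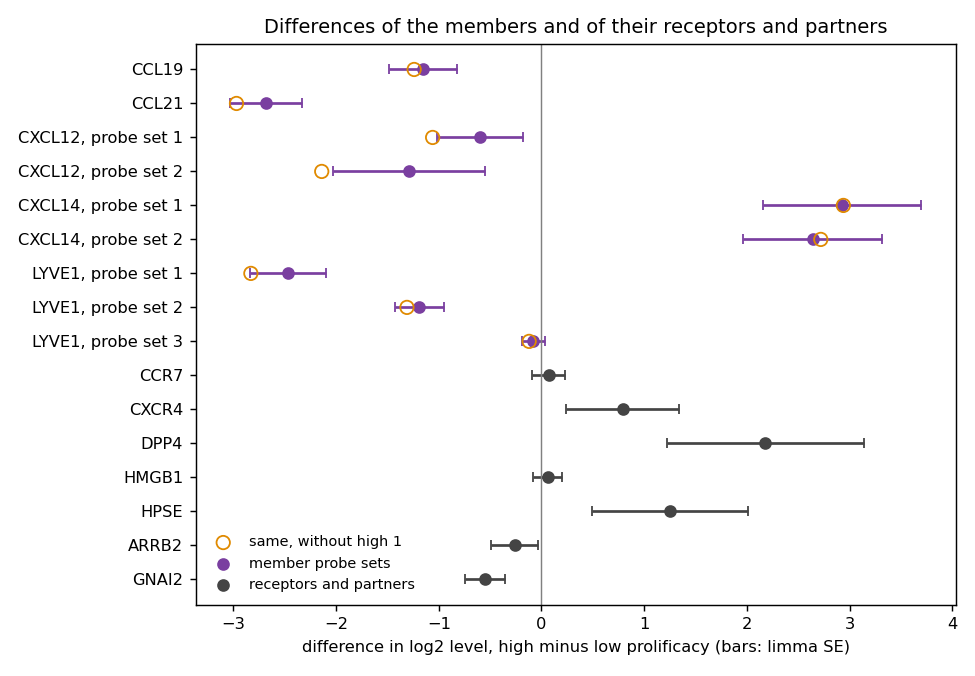
Difference in log2 level, high minus low prolificacy (horizontal axis), with limma's SE as bars, for the 9 member probe sets (purple) and the 7 receptors and partners on the array (grey); open circles give the members without high 1. The CCL19, CCL21 and LYVE1 points lie left of 0 and CXCL14 right of it, CXCL12 moves left to -1.06 and -2.14 without high 1, and none of the grey points was called.

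Among the other chemokines, 1 of 15 genes on the array was called higher and 0 lower, with a median difference of 0.07, which is also the median over all 6765 genes. The called gene was CXCL16, a transmembrane chemokine of epithelia and macrophages, which rose 5.02-fold, with a mean of 9.51 ± 0.50 (SD, n = 5) against 7.18 ± 0.99 (SD, n = 9) (limma adjusted p = 0.0053). All 5 high arrays, at 8.88 to 9.98, lay above all 9 low arrays, at 5.49 to 8.43, which held for 1.46% of genes on the array. With the smooth muscle and epithelium means as covariates its difference was 0.52 and was not called. Of 6 other chemokine receptors 0 were called (1 at an unadjusted p under 0.05), with differences from 0.03 to 0.34.

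Of 10 lymphotoxin and lymphoid stroma genes, 0 were called in limma (1 at an unadjusted p under 0.05), and their differences lay between -0.25 and 0.33. Only some of them act upstream of CCL19 and CCL21 in lymph nodes. Others, such as VCAM1, ICAM1 and MADCAM1, are adhesion molecules. LTBR, MAP3K14, RELB and NFKB2 were not analysed here, so a change upstream of the CCR7 ligands was not tested. LTB, the membrane-bound lymphotoxin, differed by -0.25 ± 0.18 (SE), and CXCL13, the B cell chemokine of lymphoid follicles, by 0.07 ± 0.15 (SE). Of 13 hyaluronan handling genes, which make, bind or degrade the ligand of LYVE1, 0 were called (4 at an unadjusted p under 0.05), with a median of 0.22. Among 9 lymphangiogenic factors, 1 rose and 1 fell. ADM, adrenomedullin, a peptide needed for lymph vessel growth, rose 5.35-fold, with a mean of 10.74 ± 0.88 (SD, n = 5) against 8.32 ± 0.97 (SD, n = 9) (limma adjusted p = 0.0075), with no overlap between groups. NR2F2, a nuclear receptor of venous and lymphatic identity, fell by 0.87 (log2, adjusted p from limma = 0.025). This call was lost without high 2, high 3, high 4 or high 5 (limma adjusted p between 0.056 and 0.088). Its dimmer probe sets differed by -2.01, -1.12 and -0.85 (limma adjusted p = 0.0047, 0.042 and 0.12), the first of them at a mean level of only 4.84. With the smooth muscle and epithelium means as covariates ADM was at -0.18 and the brightest NR2F2 probe set at 0.53, neither called.

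Few lymphatic markers beside CCL21 and LYVE1 could be read. Of 11 listed, 2 had a probe set and neither was called in limma (1 at an unadjusted p under 0.05). PDPN, podoplanin, of lymphatic endothelium and some stromal and epithelial cells, averaged 6.57 ± 1.41 (SD, n = 5) and 7.89 ± 0.59 (SD, n = 9). Its difference of -1.31 ± 0.48 (SE) was not called by limma (adjusted p = 0.12). When single arrays were left out the limma adjusted p ran from 0.011 to 0.32, so the outcome depended on the arrays kept. TFF3, also a mucosal peptide, differed by 0.05 ± 0.17 (SE). PROX1 and FLT4, defining genes of lymphatic endothelium, were not analysed here, so a change in lymph vessels was not tested.

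Blood endothelium had 1 gene higher and 1 lower of 14, with a median of -0.30. PECAM1, a junction protein of blood and lymph vessels, fell by 1.07 (log2, adjusted p from limma = 0.044). This call was kept only without high 1, high 4 or low 3. In the other 11 of 14 fits that left out an array the limma adjusted p was between 0.051 and 0.14. The dimmer PECAM1 probe set differed by -1.06 and was also called (limma adjusted p = 0.027). The vascular growth factor receptor KDR rose 3.27-fold (limma adjusted p = 0.027; 0.088 without high 2), and a second, dimmer probe set at 0.25 did not pass.

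The cells that the members attract or that carry LYVE1 showed no called marker. For markers with means under 5, such as CD4, LCK and CD79B, detection is open to doubt, so the lack of a call says little. In limma, 0 of 8 resident macrophage genes were called (1 at an unadjusted p under 0.05), 0 of 5 dendritic cell genes (1), 0 of 14 T and NK cell genes (2) and 0 of 4 B and plasma cell genes (1). Beside these stand 10.8% of all genes called in either direction. At that share lists this short can hold 0 calls, so nothing is read from these counts. The 8 macrophage genes had a median difference of 0.01 and ranged from -0.70 ± 0.26 (SE) for FOLR2, over -0.57 for MRC1, -0.08 for SIGLEC1, 0.02 for CD163, 0.07 for CD14 and 0.29 for C1QA, to 0.38 ± 0.52 (SE) for C1QC, with MARCO near 0. The macrophage list mean ran from -0.72 to 0.52 in high and from -0.64 to 0.49 in low prolificacy. The T and NK cell median was 0.16 and its differences lay between 0.02 and 0.58. The part of these cells in the members' differences was not tested.

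Of 13 stromal fibroblast genes 4 fell and 1 rose, with a median of -0.97. COL6A3 fell 6.50-fold (limma adjusted p = 0.00072) and COL6A2 2.29-fold (0.012), while COL3A1 rose by 1.15 (0.020; 0.051 to 0.071 without high 2, high 3 or high 5). The proteoglycan DCN fell by 0.56 (0.044), and the call was kept only without high 1, high 4, low 3 or low 8, with an adjusted p between 0.059 and 0.14 in the other 10 fits that left out an array and 0.062 after cyclic loess. WT1, 1 of 2 mesothelium markers on the array and also expressed in uterine stroma and muscle, fell by 1.05 (limma adjusted p = 0.0058). Of 5 fat cell genes, FABP4, also found in small vessels, fell 5.31-fold (0.0032) to a mean of 3.73 in high, and the nuclear receptor PPARG rose 3.10-fold (0.0037) from a mean of 4.39 in low, both of these means being under 5. Of 7 trophoblast genes 0 were called in limma (1 at an unadjusted p under 0.05), and their list mean ran from -1.02 to 2.54 in high and from -1.15 to 1.49 in low prolificacy, with high 4 the highest.

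**Figure D5:**
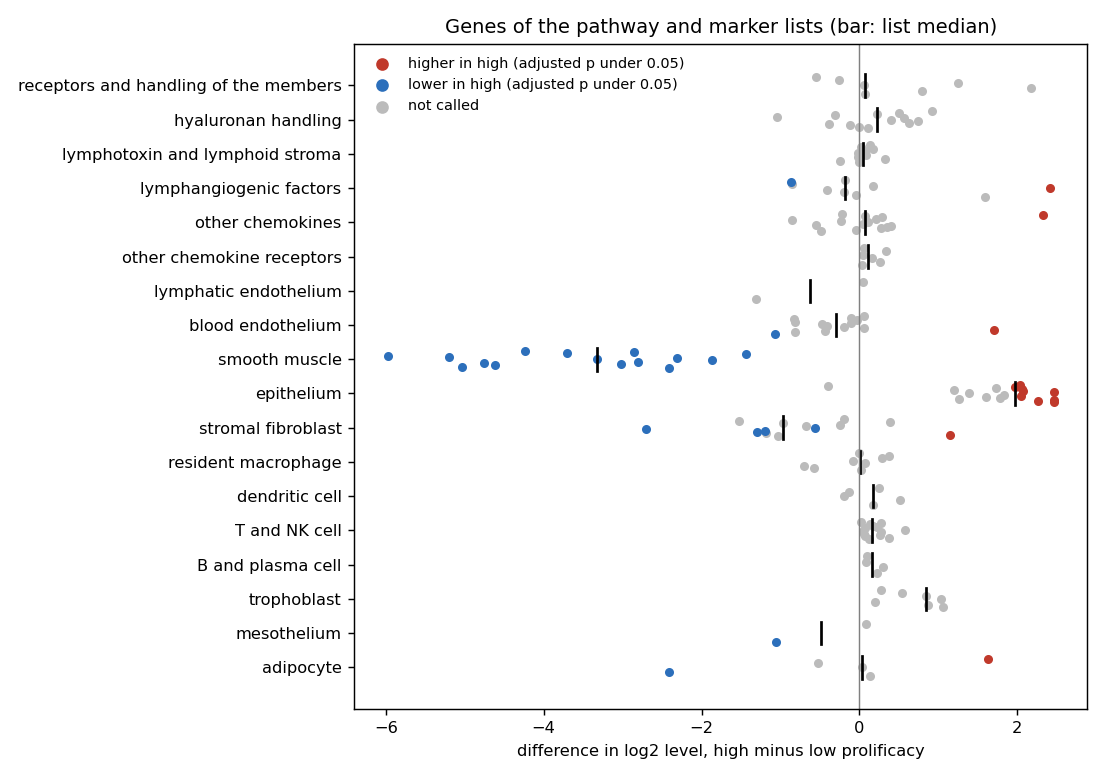
Difference in log2 level, high minus low prolificacy (horizontal axis), of each gene on the array in the 18 pathway and marker lists, 1 point per gene on its brightest probe set; black bars are list medians, red and blue points passed limma's adjusted p of 0.05. Called genes gather in smooth muscle (15 of 15 lower) and epithelium (9 of 17 higher), and the pathway and immune cell lists have medians between -0.18 and 0.22.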

How the data were processed

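The authors deposited log2 levels per probe set, made with RMA per the submitters' processing notes, which give no settings or version that could be used here. Of 24123 probe sets, 124 controls were left out and 23999 tested. Genes were named through GEO's platform annotation, some of it out of date (10069 probe sets with 1 symbol, 198 with several, 13732 with none). High minus low was fitted in R version 4.3.3 with limma version 3.58.1 (lmFit, eBayes, no covariate, two-sided), with Benjamini-Hochberg adjustment over all tested probe sets and a threshold of 0.05; SE is limma's moderated error. Lists used the brightest probe set of a gene. Correlations used exact two-sided permutation tests over the low arrays. The code was tested on simulated data.

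The members, lists and tests were chosen with earlier results of these data known. Named genes were all members, every receptor and handling gene, up to 3 called genes a direction in each other list, and the 4 genes most like each member; PDPN, TFF3, LTB, CXCL13 and the macrophage genes were added after their values were seen. Alternatives were cyclic loess, subtraction of array medians, the 12000 brightest probe sets, array weights, trended robust eBayes, the replicate number as a block, 2 list means as covariates, an adjusted p of 0.10, the probe set with the smallest p, and leaving out each array. The number of arrays limits the precision. The labels give no array batch.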

Additional observations from a re-analysis of the deposited data

Results flagged for a closer look

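Among 104 groups of arrays checked for a single array far from the others (member probe sets, list means and named genes of the lists), 4 had one, where chance alone gives about 1 in 20. The mean of the other chemokines was 0.30 on low 2, against -0.17 to 0.01 on the other low arrays. The lymphatic endothelium mean, of 2 genes, was -0.54 on low 8, against 0.09 to 0.62. ARRB2 was at 7.46 on low 3, against 6.10 to 6.55, and COL6A3 at 12.81 on low 7, against 11.96 to 12.31. For CXCL12, high 1 did not reach the limit of this check.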

How the results depend on the processing

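The direction of CCL19, CCL21, LYVE1 (first 2 probe sets) and CXCL14 held in every alternative run that kept the probe set; the filter to the 12000 brightest left out both CXCL12 probe sets and 2 of LYVE1. With the smooth muscle and epithelium covariates the member differences were -1.11 for CCL21, 2.37 and 3.72 for CXCL12, 0.87 and 0.27 for CXCL14, and -0.18, -0.29 and 0.25 for LYVE1, the other alternatives moving them by less than their SD. Leaving out an array gave -1.34 to -0.98 for CCL19, -2.97 to -2.54 for CCL21, -1.06 to -0.39 and -2.14 to -0.85 for CXCL12, 2.63 to 3.26 and 2.36 to 2.93 for CXCL14, and -2.83 to -2.13, -1.31 to -1.01 and -0.12 to -0.04 for LYVE1.

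Called probe sets numbered 1885 (841 higher, 1044 lower). They were 3060 with array weights (1529 higher), 2925 at an adjusted p of 0.10 (1395 higher), 0 with the covariates (0 higher, 0 lower), and 944 to 2650 (338 to 1301 higher, 606 to 1356 lower) when 1 array was left out, the lowest without high 3 (944) and high 2 (1002); the cause was not tested. Higher calls were 371 without high 2, 338 without high 3, 513 without high 5 and 1301 without high 1. Called pathway list genes (2 higher, 1 lower) were 0 and 0 with the covariates, 3 lower with array weights, 2 lower at an adjusted p of 0.10, and 2 to 3 higher and 0 to 2 lower when 1 array was left out. Marker list genes (12 higher, 22 lower) were 0 and 0 with the covariates, and 8 to 15 and 19 to 25 when 1 array was left out.

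With the replicate number as a block, limma called 35 probe sets (6 higher, 29 lower; 3197 at an unadjusted p under 0.05), 0 and 0 pathway list genes, and 1 higher and 0 lower marker list genes. Same-numbered arrays share only a number: their deviations correlated at 0.15, 0.14, -0.07, 0.42 and -0.25 for numbers 1 to 5, and 1 of 5 high arrays was most like the low array of its number.

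With the covariates the differences of CCR7 (-0.24), CXCR4 (-0.34), ARRB2 (0.18), GNAI2 (0.05), ADM (-0.18), NR2F2 (0.53), KDR (-0.66), OVOL1 (-0.32), COL3A1 (-0.19), DCN (0.14) and WT1 (0.01) changed sign, none of them called. CCR7 ran from -0.03 to 0.15 without 1 array. The correlation of CXCL12 with CXCL14 ran from -0.91 to -0.85 without 1 array, with 0 to 1 of 10 pairs and 0 to 1 of 40 list relations called. Relations near 0 changed sign: CCL21 with CXCL12 was 0.01 after median subtraction, and leaving out an array gave -0.33 to 0.13 for CCL19 with CCL21, and for CCL21 -0.25 to 0.19 with CXCL12, -0.26 to 0.24 with CXCL14, -0.29 to 0.39 with LYVE1, -0.13 to 0.42 with smooth muscle and -0.29 to 0.56 with epithelium, and -0.11 to 0.39 for LYVE1 with smooth muscle.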
